A study of Homo sapiens with 12 samples.

Results

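Transcripts of 6 secreted stress hormones and growth factors, FGF21, INHBE, INHBA, INHBB, GDF15 and STC2, were followed in KYSE70 cells, an established human esophageal squamous cell carcinoma line. The 6 genes were taken by symbol from the 58884 genes of the table. They had been picked because INHBE and FGF21 were among the highest rises under mitoxantrone and because INHBE was lower under pyrimethamine. Their own levels and changes are therefore given here as a description, without p-values. Where these genes are counted as past a threshold, the count carries no information of its own. Of the 6, 5 were among the 16950 genes fitted, which reached 10 normalized counts in 4 or more of the 12 libraries, and STC2 was not.

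The 12 libraries were made from bulk RNA, with 4 of untreated control cells, 4 after 72 h in pyrimethamine (10 µM) and 4 after 72 h in mitoxantrone (20 nM). Pyrimethamine is an antiparasitic drug that blocks folate use, whereas mitoxantrone is a chemotherapy agent acting on DNA and type II topoisomerases. Both were studied as inhibitors of the transcription factor NRF2. The labels name no vehicle and leave unsaid whether replicates were grown as separate cultures, so that p-values reflect only the spread among these samples, which may be technical.

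FGF21 is an endocrine fibroblast growth factor that signals through an FGF receptor paired with the coreceptor beta-Klotho, encoded by KLB. INHBA, INHBB and INHBE encode the beta A, beta B and beta E subunits of the activins, which pair into dimers and signal through activin receptors and the SMAD2 and SMAD3 proteins. GDF15 acts on the brainstem receptor GFRAL, which signals with RET, and STC2 encodes stanniocalcin 2, an inhibitor of the protease PAPP-A. FGF21, INHBE, GDF15 and STC2 are known as genes that the stress transcription factor ATF4 can switch on, and FGF21 and INHBE are best known as products of the liver.

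All 12 libraries held between 47.5 M and 94.5 M reads assigned to genes. The labelled cell type was checked against 9 genes of squamous epithelium, among them KRT5, KRT14 and TP63, and all 9 had a mean above 10 in every group. Reads from the mitochondrial genome made up 6.16% to 6.69% of the total in the control, 6.83% to 8.33% with pyrimethamine and 3.23% to 3.89% with mitoxantrone, and the part of this difference in the results below was not tested. Of 8 hepatocyte genes, APOB, FGB and TTR were at 0 in all control libraries, and the summed level of the 8 was 128 to 163 normalized counts in the control, 104 to 131 with pyrimethamine and 5.72 to 23.8 with mitoxantrone. Summed fibroblast markers (7 genes, COL1A2 and DCN at 0 in the control) were 23039 to 23974, 19470.2 to 20913 and 8886 to 10757 in the same order of groups. Those of blood and endothelium (7 genes) were 951 to 1071, 1071 to 1186 and 178 to 247, and those of granulosa cells (5 genes, INHA and FOXL2 at 0 throughout) were 102 to 153, 133 to 165 and 47.0 to 74.4. The part of these differences in the results was not tested. Other genes of these lists were present in the control. Fibroblast genes COL1A1, THY1 and COL3A1 had means of 14955, 6334 and 2295, and VWF of endothelium had 1001. CYP19A1 of granulosa cells had 112, and the hepatocyte genes HNF4A and ALB had 95.8 and 28.0. A mean above 10 is thus not particular to the squamous genes. Levels are normalized counts, the reads of a gene divided by a factor for each library, and are comparable between libraries for 1 gene. Between genes they are compared only per kb of exon, with all annotated exons of a gene merged. That length includes exons of longer transcripts, and the order of genes and their shares of a sum depend on it.

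The FGF21 gene (ENSG00000105550) lies on the plus strand of chromosome 19 at 48755559 to 48758333 (GRCh38, GENCODE 29). Its promoter is shown because FGF21 had the second highest change under mitoxantrone and is a known ATF4 target. The RefSeq sequence table (GRCh38.p14) held the 250 bases before the start of 5 of the 6 genes, all except INHBE. These windows were searched on both strands for 6 motifs. They were TGATGNAA, the composite element that ATF4 binds with a C/EBP partner, TGACGTCA, the cAMP response element, and TGACNNNGC, the core of the antioxidant response element. The others were the ER stress element, the TATA box (TATAAA) and the SMAD-binding palindrome GTCTAGAC. In the lines below, bases in capitals mark a match and the rest is in lower case, 5′ to 3′ on the strand of the gene. For FGF21 the 133 bases next to the start are printed, since further upstream the window runs into exons of the neighbouring gene FUT1. For INHBA and GDF15 only 30 bases around the match are printed, since exons of longer transcripts cover it.
FGF21, chr19:48755391-48755523, plus strand: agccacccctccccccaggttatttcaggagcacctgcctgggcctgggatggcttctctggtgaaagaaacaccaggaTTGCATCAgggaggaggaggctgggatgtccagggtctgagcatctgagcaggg
GDF15, chr19:18386117-18386146, plus strand: aagtccggggacTATAAAggccggtccggc
INHBA, chr7:41703091-41703120, minus strand: gtacaaataagtagtacagTATAAAacttc
INHBB, chr2:120345886-120346135, plus strand: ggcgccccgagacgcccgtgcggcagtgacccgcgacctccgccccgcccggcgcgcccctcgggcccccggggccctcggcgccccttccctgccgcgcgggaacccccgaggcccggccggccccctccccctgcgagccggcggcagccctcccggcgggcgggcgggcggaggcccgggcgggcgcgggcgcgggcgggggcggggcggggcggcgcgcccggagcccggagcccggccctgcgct

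The capitals in the FGF21 line are the composite element read on the opposite strand (TTGCATCA, reverse complement of TGATGNAA), at 54 to 47 bases before the RefSeq start. That start lies upstream of the GENCODE start of the gene given above. A match to this motif was present in 1104 of 35116 promoters of the same length, or 3.14%. The capitals in the GDF15 and INHBA lines are TATA boxes, 29 to 24 and 11 to 6 bases before the RefSeq start, and 10.7% of all promoters held such a match. INHBB, shown as the GC-rich member with no annotated exon in its window, held none of the 6 motifs, and neither did STC2. All 250 bases of the STC2 window lie in annotated STC2 exons, so sequence upstream of its longest transcripts was not searched. The other motifs occurred in 1.65% of promoters for the cAMP response element, 10.9% for the antioxidant response element core, 0.0740% for the ER stress element and 0.182% for the SMAD palindrome, and in none of these 5 windows. A match describes the letters only.

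FGF21 was near the limit of detection in untreated cells and well above that limit only with mitoxantrone. Its normalized counts in replicates 1 to 4 were 6.55, 6.61, 9.34 and 5.27 in the control, which is 30 reads in all. With mitoxantrone they were 93.0, 141, 146 and 139 (511 reads). With pyrimethamine they were 0.890, 5.91, 1.02 and 0, or 8 reads in 4 libraries. Every mitoxantrone library was above every other library, while pyrimethamine replicate 2 lay within the control range and the other 3 below it. The mean was 6.94 ± 1.72 (SD, n = 4) in the control and 129.8 ± 24.7 with mitoxantrone, an 18.7-fold ratio and a change of 4.04 (SE 0.46) on the log2(normalized count + 1) scale, which understates changes of genes with few counts. Among 16950 genes this change ranked 2 from the highest, which is how the gene was chosen. Against the control, pyrimethamine gave -1.78 (SE 0.46), and the ratio of reads was 0.285 with a 95% counting interval of 0.113 to 0.636. In bulk RNA, fewer cells that carry a transcript and less of it per cell cannot be told apart. FGF21 passed the filter on low values only through its mitoxantrone libraries.

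INHBE differed in opposite directions with the 2 drugs. The gene (ENSG00000139269, chromosome 12, 57452323 to 57459280, plus strand) encodes the activin beta E subunit. Its control libraries held 89.8, 101, 77.9 and 75.1 normalized counts. Pyrimethamine libraries held 21.4, 9.85, 17.4 and 12.05, and mitoxantrone libraries held 929, 1251, 902 and 1068. No library of one group overlapped another group. The means were 86.0 ± 11.9 (SD, n = 4) in the control, 15.2 ± 5.21 with pyrimethamine and 1037 ± 159.9 with mitoxantrone. On the log2 scale the change was -2.47 (SE 0.20) with pyrimethamine, rank 9 from the lowest of all genes, and 3.58 (SE 0.20) with mitoxantrone, rank 8 from the highest. Between the drugs the level was 68.4-fold higher with mitoxantrone, a difference of 6.05 that was the highest of the 16950 genes.

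**Figure D1:**
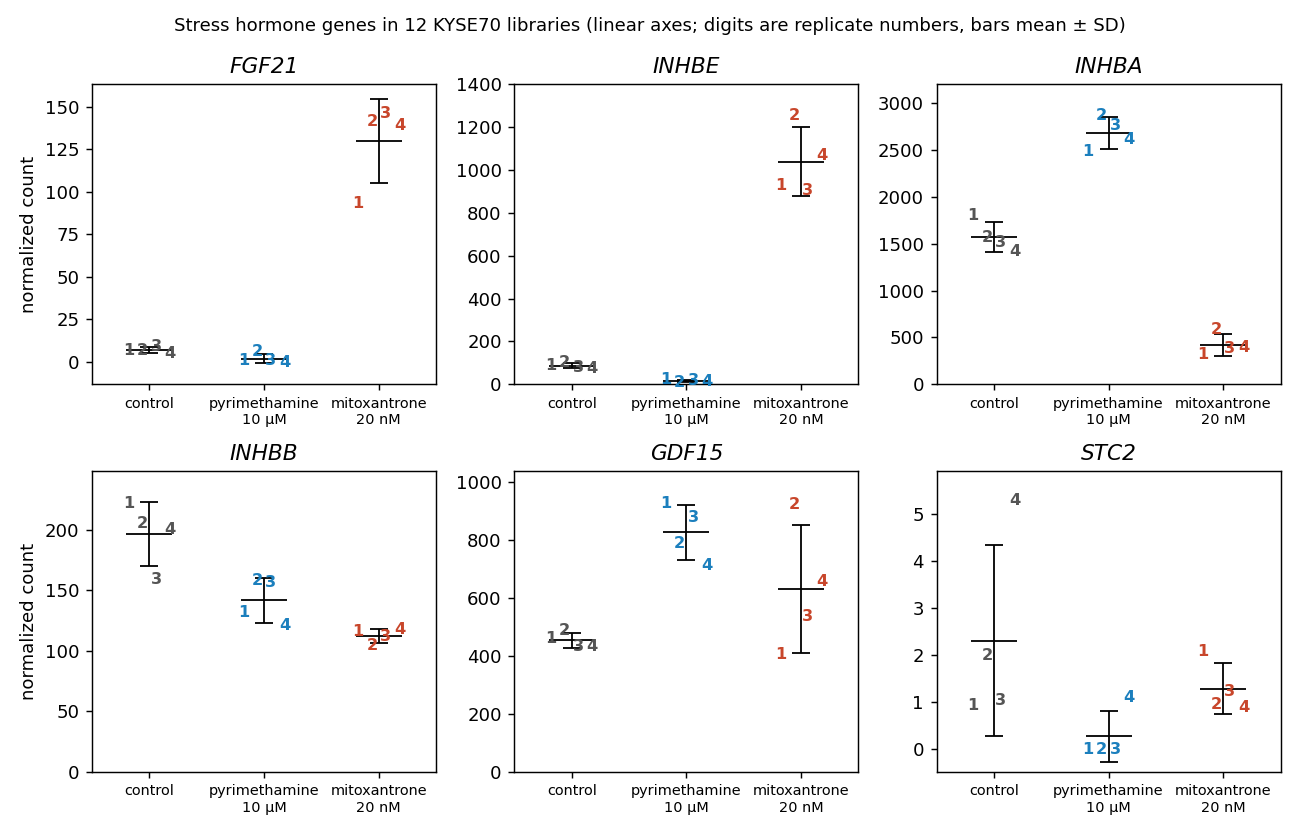
Normalized counts of the 6 genes in each of the 12 libraries. Each panel is 1 gene with a linear vertical axis of its own, digits mark replicates 1 to 4, and the bars give the group mean and SD. FGF21 and INHBE are high only with mitoxantrone, INHBA is highest with pyrimethamine and lowest with mitoxantrone, and STC2 stays at or below 5.27 in every library.

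INHBA, the gene of the beta A subunit that forms activin A, had the opposite order to INHBE. It lies on the minus strand of chromosome 7 at 41667168 to 41705834 (ENSG00000122641). Its normalized counts were 1796, 1569.7, 1507 and 1411 in the control, 2481, 2862, 2761 and 2613 with pyrimethamine, and 323, 583, 383 and 389 with mitoxantrone. The 3 groups did not overlap, with pyrimethamine highest and mitoxantrone lowest. Pyrimethamine gave 1.71-fold the control mean (log2 0.77, SE 0.12), and with mitoxantrone the mean was 3.74-fold lower (log2 -1.93, SE 0.12).

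INHBB, the beta B subunit gene, was lower with both drugs. It lies on chromosome 2 at 120346143 to 120351808, on the plus strand (ENSG00000163083). The control libraries held 222, 205, 159 and 200.3 normalized counts, the pyrimethamine libraries 132, 158, 157 and 120.5, and the mitoxantrone libraries 116, 104, 111 and 117. The 3 ranges were separate, though the lowest control library (159) was close to the highest pyrimethamine library (158). The log2 changes were -0.47 (SE 0.14) with pyrimethamine and -0.79 (SE 0.14) with mitoxantrone.

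GDF15 was higher with pyrimethamine, and mitoxantrone libraries straddled the control. The gene (ENSG00000130513, chromosome 19, 18374731 to 18389176, plus strand) had 460.2, 488, 433 and 433 normalized counts in the control. With pyrimethamine it had 927, 789, 879 and 712, all above the control. With mitoxantrone it had 404, 924, 537 and 657, so that replicate 1 lay below every control library and replicate 2 near the highest pyrimethamine library. The log2 change was 0.86 (SE 0.16) with pyrimethamine and 0.41 (SE 0.16) with mitoxantrone, and the latter was 0.21 without mitoxantrone replicate 2 and 0.60 without mitoxantrone replicate 1.

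STC2 (ENSG00000113739, chromosome 5, 173314713 to 173329503, minus strand) was at the limit of detection in every group. Its reads summed to 9 in the control, 1 with pyrimethamine and 5 with mitoxantrone, with normalized counts of 0.935 to 5.27, 0 to 1.10 and 0.897 to 2.07. The ratio of reads to the control was 0.119 for pyrimethamine, with a counting interval of 0.00271 to 0.857, and 0.607 for mitoxantrone, with an interval of 0.160 to 2.02. Fitted without the filter on low values, the log2 change of STC2 was -1.28 with pyrimethamine and -0.38 with mitoxantrone, on these few reads. None of the 6 genes shared an exonic base with another annotated gene, and no 50-base window of their transcripts occurred in a transcript of another gene.

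Set side by side between the drugs, 2 of the 5 fitted genes were higher with mitoxantrone than with pyrimethamine and 3 were lower. On the log2 scale the differences were 5.83 for FGF21, with a 66.3-fold ratio of means, 6.05 for INHBE, -2.70 for INHBA, -0.33 for INHBB and -0.45 for GDF15. The libraries of the drugs overlapped for GDF15 and not for the other 4. Of all 16950 genes, 68.8% did not overlap between the drugs, and 36.9% were called higher and 39.5% lower with mitoxantrone. The counts of these 5 genes therefore carry no information of their own. The small difference of INHBB was 0.076 after quantile normalization, where its direction turned.

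Per kb of exon, the 6 genes changed order between groups. In the control GDF15 (217 ± 12.5 normalized counts per kb, SD, n = 4) and INHBA (189 ± 19.7) were highest and overlapped each other, followed by INHBB (61.3), INHBE (28.5), FGF21 (5.28) and STC2 (0.376), with no overlap between neighbours. Pyrimethamine kept that order, with GDF15 at 396 and INHBA at 323, again overlapping, and INHBE at 5.03, where it overlapped FGF21 (1.49). With mitoxantrone INHBE (344 ± 53.03) stood first and overlapped GDF15 (302 ± 106), FGF21 (98.7) came next, and INHBA (50.6) and INHBB (35.0) followed. FGF21 passed from below both INHBA and INHBB to above them.

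**Figure D2:**
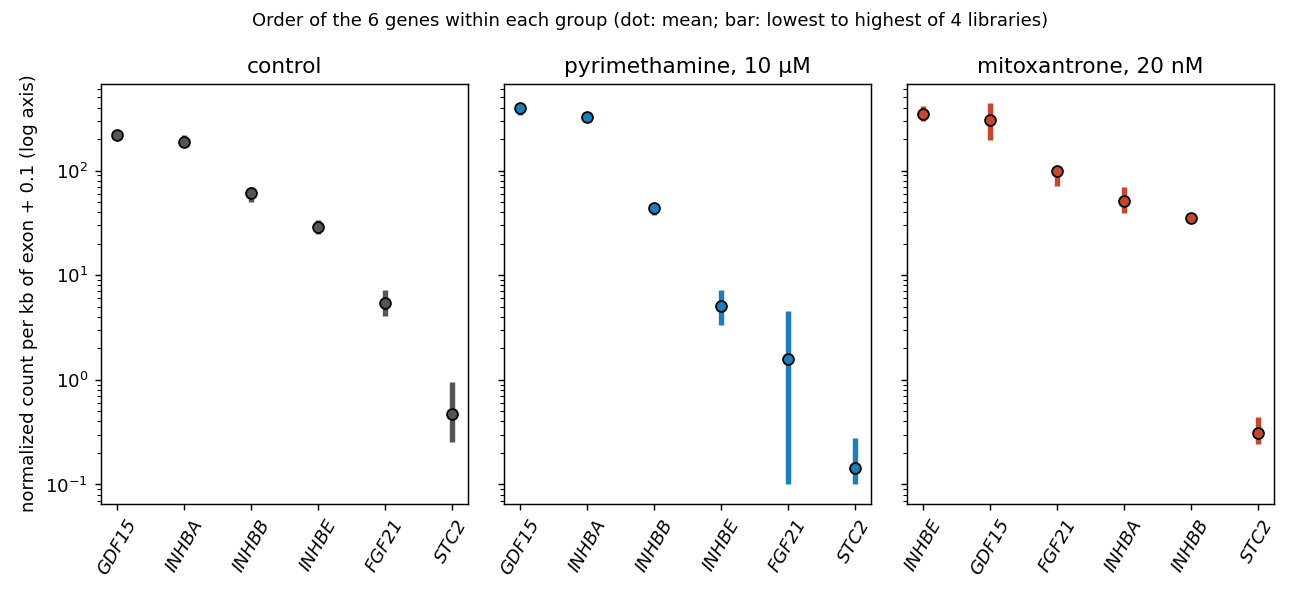
Level per kb of exon of the 6 genes in each group, as normalized counts per kb with 0.1 added, on a log axis. Dots are the group means and bars run from the lowest to the highest of the 4 libraries. GDF15 and INHBA lead in the control and with pyrimethamine, while INHBE and GDF15 lead with mitoxantrone.

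The 4 activin beta subunit genes exchanged places within their sum. Including INHBC, the beta C gene, the summed level per kb was 283 ± 28.8 (SD, n = 4) in the control, 378 ± 23.5 with pyrimethamine and 433 ± 66.4 with mitoxantrone. INHBA made up 66.9% ± 2.25 of it in the control, 85.4% ± 1.00 with pyrimethamine and 11.5% ± 1.49 with mitoxantrone. INHBE made up 10.1% ± 1.02, 1.35% ± 0.514 and 79.4% ± 0.891 in the same order. INHBB went from 21.6% ± 2.00 to 11.7% with pyrimethamine and 8.24% with mitoxantrone, and INHBC stayed below 2% of the sum. The group ranges of INHBA and INHBE did not overlap. The shares are of transcript, and the protein dimers were not measured.

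**Figure D3:**
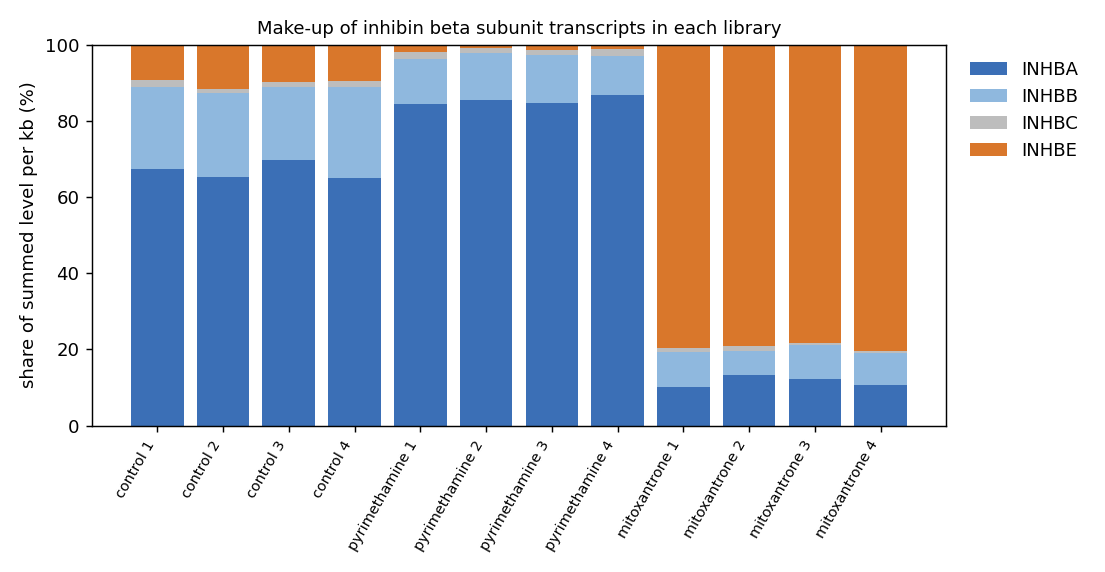
Share of INHBA, INHBB, INHBC and INHBE in their summed level per kb of exon, in percent, as a stacked bar for each of the 12 libraries. INHBA fills most of the control and pyrimethamine bars and INHBE fills 78.3% to 80.4% of the mitoxantrone bars.

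Read against all genes, the number of these genes past the threshold (adjusted p under 0.05, limma) carried no information of its own, since they were chosen on these contrasts. With pyrimethamine 2 were higher and 3 lower of the 5 fitted, where 53.3% of all 16950 genes were called, 26.4% higher and 26.9% lower. FGF21 counted among the 3 lower on 8 reads against 30, with libraries that overlapped. It was in the fit only through its mitoxantrone libraries. With mitoxantrone 3 were higher and 2 lower, where 69.3% were called, 33.5% higher and 35.8% lower. With mitoxantrone against pyrimethamine 2 were higher and 3 lower, against 76.4% of all genes (36.9% higher, 39.5% lower). Libraries did not overlap for 4 of 5 genes in each comparison, 2 higher and 2 lower. With pyrimethamine 51.1% of all genes did not overlap the control, 25.8% higher and 25.4% lower. With mitoxantrone the shares were 60.9%, 29.9% and 31%, and between the drugs 68.8%, 33.3% and 35.5%. Higher genes were 48.4% of the calls for mitoxantrone against the control and 38.0% when libraries were scaled to the same total. GDF15 counted among the 3 higher genes with mitoxantrone, and it was not called when libraries were scaled to the same total (log2 0.31) or without control replicate 3, control replicate 4, mitoxantrone replicate 2 or mitoxantrone replicate 4. Of the 3 lower between the drugs, INHBB was not called after quantile normalization or without pyrimethamine replicate 2 or 3 or mitoxantrone replicate 2 or 3. GDF15 was not called there with DESeq2 (-0.39) or without mitoxantrone replicate 1 (-0.26). Both drug comparisons use the same 4 control libraries.

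INHBE sits between 2 genes on the same strand that behaved differently from each other. INHBC ends 1494 bases on its lower-coordinate side and had 6.23 to 11.2 normalized counts in the control, 10.2 to 13.4 with pyrimethamine and 3.71 to 14.3 with mitoxantrone, with adjusted p = 0.293 and 0.693 for the 2 drugs against the control (limma). GLI1, a transcription factor of the Hedgehog pathway, begins 854 bases beyond INHBE and followed the same order as INHBE. Its control libraries held 193, 258, 197 and 223, its pyrimethamine libraries 68.5, 65.0, 74.7 and 67.9, and its mitoxantrone libraries 893, 855, 961 and 829.6. GLI1 fell with pyrimethamine (log2 -1.63, SE 0.11, adjusted p = 8.31e-11, limma) and rose with mitoxantrone (log2 2.03, adjusted p = 6.40e-13, limma). In both comparisons every drug library lay outside the control range.

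FUT1, a fucosyltransferase gene, faces FGF21 on the opposite strand 168 bases away. Its mean was 398 ± 39.6 (SD, n = 4) in the control, 459 ± 59.7 with pyrimethamine and 869 ± 10.2 with mitoxantrone. It rose 2.18-fold with mitoxantrone (log2 1.13, adjusted p = 4.19e-10, limma), beside the 18.7-fold ratio of FGF21. With pyrimethamine it had a log2 change of 0.20 (adjusted p = 0.0693, limma). The strand setting of the counting is not given in the sources used here. INHBA-AS1, which overlaps INHBA on the opposite strand, shares none of its exonic bases and had 0 to 2.08 normalized counts in the control. GLI3, the nearest gene above INHBA, lies 255115 bases away.

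**Figure D4:**
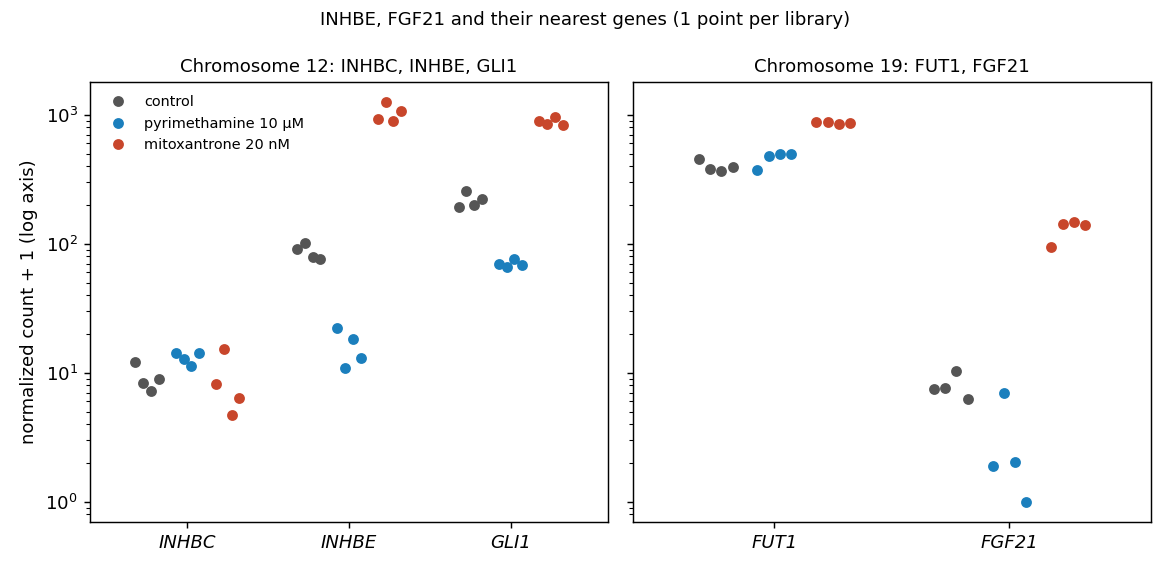
Normalized counts, with 1 added, of INHBE and FGF21 beside their neighbouring genes GLI1, INHBC and FUT1, on a log axis with 1 point per library and the groups in 3 colours. GLI1 has the same order of groups as INHBE, and INHBC stays at or below 14.3 normalized counts in every library.

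Among the tested other ligands of the TGF-beta family, most rose with pyrimethamine and most fell with mitoxantrone, though not all were the same genes. Of 14 ligands listed, 13 were matched to the data, and TGFB1 was not. Of 8 tested, 5 rose, 1 fell and 2 were not called with pyrimethamine (median log2 0.30), and 0 rose, 6 fell and 2 were not called with mitoxantrone (median -0.53). Over all genes 26.4% rose and 26.9% fell with pyrimethamine, 33.5% rose and 35.8% fell with mitoxantrone, and the medians were 0.0018 and -0.0080, values that stand beside the counts of every list that follows. BMP4, a bone morphogenetic protein, had means of 883 in the control, 1499 with pyrimethamine and 337 with mitoxantrone (log2 0.77 and -1.40). TGFB2 had 517, 765 and 233 (log2 0.57 and -1.17). BMP6 rose with pyrimethamine (0.33), and BMP2 fell with mitoxantrone (-0.96). INHA, the alpha subunit that turns activin subunits into inhibins, had 0 reads in all 12 libraries, which allows at most 3 reads in a library, or 1.98 to 3.95 normalized counts in the control.

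Activin receptors and SMAD proteins changed in both directions. Of 11 tested, 5 rose and 3 fell with pyrimethamine (median 0.14), and only 3 rose when any one of control replicates 2 and 3 and pyrimethamine replicates 1 and 2 was left out. With mitoxantrone 6 rose and 3 fell (median 0.11). ACVR2B, a type II activin receptor, had means of 261 in the control and 648 with mitoxantrone (log2 1.31), and -0.15 with pyrimethamine, which was not called. ACVR1C, a type I receptor, rose with pyrimethamine (0.65), and BMPR2, a receptor for bone morphogenetic proteins, fell (-0.43). SMAD3 fell with mitoxantrone (-0.56), while ACVR2A rose (0.41).

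Of 12 activin inhibitors tested, 3 rose and 4 fell with pyrimethamine (median -0.04), and 4 rose and 5 fell with mitoxantrone (median -0.02). FST encodes follistatin, which binds activins, and had means of 1594 in the control, 1089 with pyrimethamine and 1545 with mitoxantrone. It fell with pyrimethamine (log2 -0.55) and gave -0.04 with mitoxantrone, which was not called. FSTL3, a related binder, gave 0.03 with pyrimethamine, not called, and fell with mitoxantrone (-0.59). BAMBI, a decoy receptor, rose with pyrimethamine (0.79) and fell with mitoxantrone (-0.30), and the inhibitory SMAD6 fell (-0.51) and rose (0.59) in the same order.

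Genes known as targets of SMAD2 and SMAD3 were mostly lower with mitoxantrone. Of 12 tested, 2 rose and 10 fell (median -0.56), where 35.8% of all genes fell. With pyrimethamine 5 rose, 2 fell and 5 were not called (median 0.03). CCN2, a matricellular growth factor, had means of 204 in the control, 483 with pyrimethamine and 102 with mitoxantrone (log2 1.24 and -1.02). TGFBI, of the extracellular matrix, fell with mitoxantrone (-1.67). FSTL3, BAMBI, SMAD7, SKIL and PMEPA1 stand in this list and in that of the inhibitors.

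Transcripts of FGF receptor genes were present, while those of the coreceptor gene KLB were almost absent. Counts per gene do not tell splice forms of the receptors apart. KLB had 0 reads in the control and with mitoxantrone, and 1 read in the pyrimethamine libraries. Of 6 receptor and adaptor genes tested, 1 rose and 4 fell with pyrimethamine (median -0.46), and 2 rose and 3 fell with mitoxantrone (median -0.27). The rise with pyrimethamine, FRS2, was not called without pyrimethamine replicate 3, and 1 of the 2 rises with mitoxantrone was lost without control replicate 2 or 3. FGFR2 had means of 5240.2 in the control, 3287 with pyrimethamine and 10719.8 with mitoxantrone (log2 -0.67 and 1.03). FGFR4 fell with both drugs (-0.63 and -1.24), FRS3, an adaptor, fell with pyrimethamine (-0.63), and FGFR3 fell with mitoxantrone (-1.19).

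GFRAL, the GDF15 receptor, had 0 reads in all 12 libraries, with the same limit as INHA. Of 6 genes tested among RET and the proteases that process such precursors, 2 rose and 2 fell with pyrimethamine (median -0.07), and 2 rose and 3 fell with mitoxantrone (median -0.06), where 1 rise was lost without control replicate 2. RET had means of 367 in the control, 316 with pyrimethamine, which was not called, and 33.1 with mitoxantrone (log2 -3.55, SE 0.22). PCSK5 (0.77 and 0.19) rose with both drugs, and PCSK6 (0.60 and -0.24), also a proprotein convertase, rose and fell. Around STC2, PAPPA had means of 1322, 1418 and 1397 and was called in neither comparison, and STC1 had 5.73, 6.35 and 9.23. Of 5 tested genes of that axis, 0 rose and 1 fell with pyrimethamine, IGFBP5 (-0.69), and 0 rose and 2 fell with mitoxantrone, IGFBP4 (-0.69) and IGF2R (-0.44). The medians of that axis were -0.06 and -0.05.

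ATF4 itself fell with pyrimethamine and rose with mitoxantrone. Its means were 12921 ± 379 (SD, n = 4) in the control, 5453 ± 167 with pyrimethamine and 35531 ± 840 with mitoxantrone (log2 -1.24 and 1.46). Of 16 eIF2alpha kinases and stress transcription factors, 4 rose and 8 fell with pyrimethamine (median -0.09), and 9 rose and 5 fell with mitoxantrone (median 0.15). DDIT3, which encodes CHOP, rose with both drugs (0.29 and 1.31). ATF3 had means of 4944, 8896 and 2697, rising with pyrimethamine (0.85) and falling with mitoxantrone (-0.88). NUPR1, a small stress-response regulator, fell with pyrimethamine (-2.37, SE 0.12) and rose with mitoxantrone (0.42), and TRIB3, an ATF4 feedback gene, rose with mitoxantrone (1.22).

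Of 23 other ATF4 target genes tested, 20 rose with mitoxantrone (median 0.56), CBS alone fell (-0.23) and 2 were not called, where 33.5% of all genes rose. CBS was not called without any one of control replicates 2 and 4 and mitoxantrone replicates 1 and 4. With pyrimethamine 4 rose, 15 fell and 4 were not called (median -0.34), where 26.9% of all genes fell. DDIT4, an mTOR inhibitor gene, gave -1.14 with pyrimethamine and 1.96 with mitoxantrone, and SLC7A11, the cystine transporter, gave -0.64 and 1.89, all called. ADM2, a secreted peptide hormone, had means of 71.4, 16.8 and 135 (log2 -2.07 and 0.87). PSAT1, of serine synthesis, rose with mitoxantrone (1.19). Beside them, GDF15 had a log2 change of 0.86 with pyrimethamine and 0.41 with mitoxantrone.

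**Figure D5:**
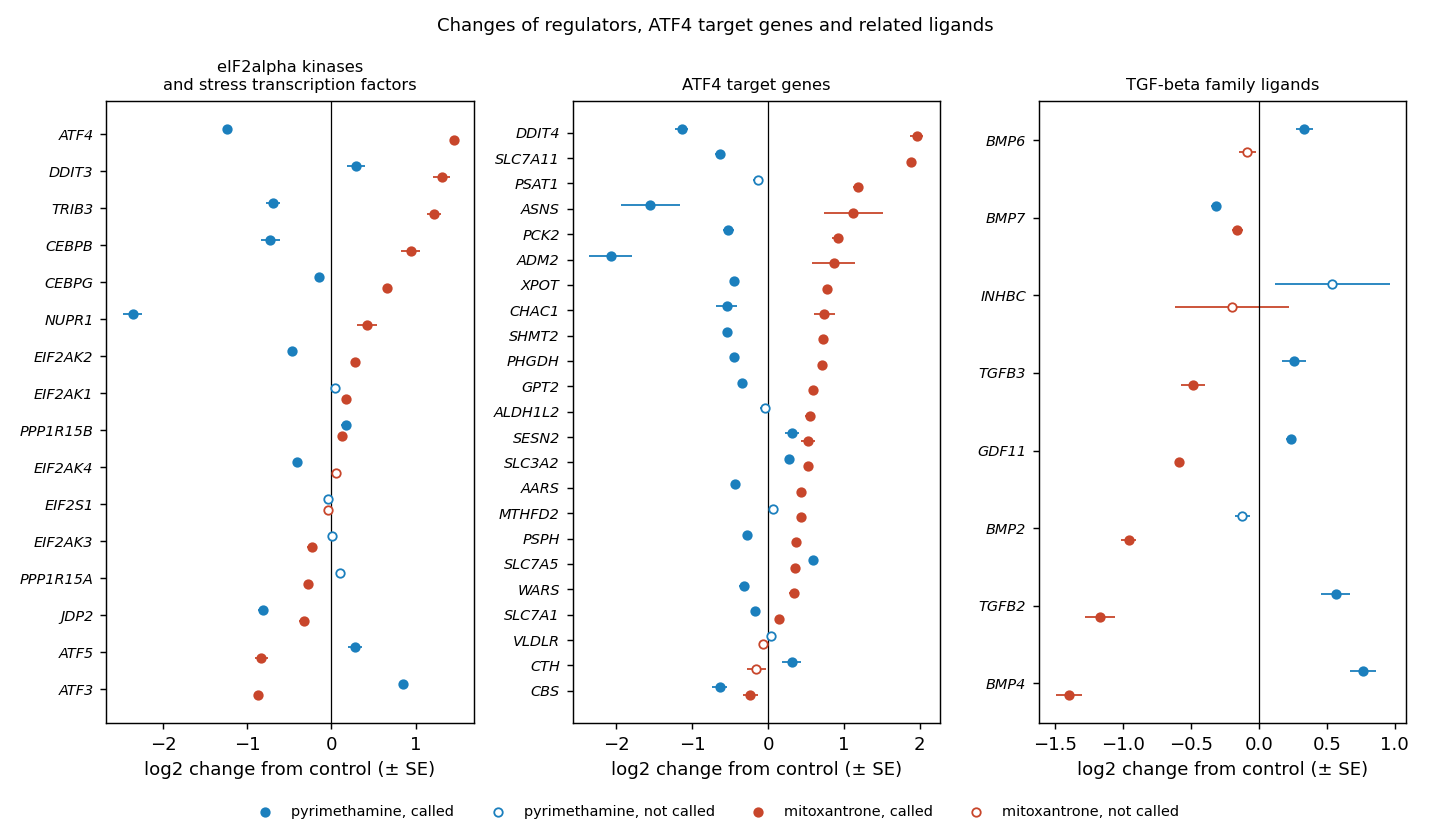
Change from the control on the log2(normalized count + 1) scale, with its SE, for the tested genes of 3 lists, each panel with a horizontal axis of its own. Blue is pyrimethamine and red mitoxantrone, both against the same control libraries, and filled points were called. ATF4 and most of its target genes lie to the right of 0 with mitoxantrone, while the 8 TGF-beta family ligands lie to the left of 0, of which 6 were called.

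Of 15 genes of the unfolded protein response, 0 rose and 10 fell with pyrimethamine (median -0.16), and 7 rose and 3 fell with mitoxantrone (median 0.10), where 53.3% and 69.3% of all genes were called in either direction. The number called with mitoxantrone, 10 of 15, was near that share. HERPUD1, of protein degradation at the endoplasmic reticulum, fell with pyrimethamine (-0.68), and XBP1 fell with pyrimethamine (-0.46) and rose with mitoxantrone (0.75). The chaperone HSPA5 rose with mitoxantrone (0.48).

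Of 10 other known regulators of FGF21 or GDF15 tested, 1 rose and 7 fell with pyrimethamine (median -0.25), and 6 rose and 3 fell with mitoxantrone (median 0.45). EGR1, an immediate early factor, fell with pyrimethamine (-0.65) and rose with mitoxantrone (0.72). SP1 (-0.55) and MLXIPL (-0.62), the carbohydrate response factor ChREBP, fell with pyrimethamine. NR1D1, a clock repressor, rose with mitoxantrone (1.10) and KLF4 fell (-1.04). Of 11 other secreted stress factors, 4 rose and 6 fell with pyrimethamine (median -0.23), and 3 rose and 6 fell with mitoxantrone (median -0.16). NPPB, the precursor of B-type natriuretic peptide, had means of 13.6 in the control, 183 with pyrimethamine and 2.46 with mitoxantrone (log2 3.74 and -2.26). VEGFA fell with pyrimethamine (-0.74) and rose with mitoxantrone (1.21), as ADM2 did, and CXCL8, a chemokine, fell with both (-0.59 and -0.74).

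The genes whose log2 levels most resembled each member were ranked by Pearson r over the 12 libraries among 13110 genes, as a description of libraries that fall into only 3 groups. FGF21 was closest to CEP63 (r = 0.991), CWC22 (0.989) and IWS1 (0.987), although these had changes far smaller than its own. CEP63 had means of 1652 in the control, 1475 with pyrimethamine and 2286 with mitoxantrone. INHBE was closest to DGLUCY (0.998), SLC25A13 (0.997) and EXOC6 (0.996), and its neighbour GLI1 was at place 25 (0.992). SLC25A13, the mitochondrial aspartate and glutamate carrier, had means of 3670.1, 2270 and 6953. INHBA was closest to HAS3 (0.998), a hyaluronan synthase, DUSP5 (0.995), a phosphatase of ERK, and ILDR2 (0.995). INHBB was closest to FNDC10 (0.964), PLCD1 (0.963) and RRAGD (0.961), and GDF15 to ZSCAN21 (0.928), KCNJ15 (0.923) and APLF (0.913), both with lower values than the other 3 genes.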

How the data were processed

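RNA of 12 libraries was measured. Per the submitters' processing notes, reads were handled with featureCounts 1.5.1, STAR 2.6.90c, cutadapt 1.12 and FastQC 0.11.5, and the notes name the builds hg38 and mm10. The deposited table gives, for every gene in every library, a signal that the authors made by scaling read counts with a single factor for the library. Undoing that factor returned whole reads for 100.0% of values, within 0.01 read, so that read counts could be tested too. Gene positions came from GENCODE 29, which held 58611 of the 58884 identifiers.

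The 6 genes, the gene lists and the tests were chosen with earlier results of these data known. Under R 4.3.3, limma 3.58.1 modelled log2(value + 1) of the 16950 genes that reached 10 in 4 or more of the 12 libraries, using the 3 groups, no covariate and a variance trend. Tests were two-sided, with Benjamini-Hochberg adjustment across these genes and a threshold of 0.05, and "rose" and "fell" in the text mean past it. Genes named from a list were the 3 called genes of largest change per drug with a mean of at least 50, plus 14 genes fixed in any case, of which some are not reported here, and other list genes named were chosen after their values were seen. Alternatives changed the pseudocount (0.5 and 10), the filter (none, or a mean of 100), the scaling (same total, quantile) and the libraries fitted (only the groups compared, or each library left out), or added a block for replicate. On the recovered reads, edgeR 4.0.16 called 4506 genes higher and 4780 lower with pyrimethamine and 5805 higher and 5960 lower with mitoxantrone, and DESeq2 1.42.0 called 4712 and 4606, and 5791 and 6043. The test was tried on simulated data of 16950 genes, where 45 of 50 genes changed 1.5-fold were recovered for pyrimethamine against the control and 43 of 50 for mitoxantrone. The simulation assumed a spread between libraries and changed only a small part of the genes. None of those changed had counts as low as FGF21 in the control. Its recovery therefore does not describe the 6 genes or the many changes of these data. Counting intervals are at 95% and a count of 0 allows 3 reads, and neither covers more than counting error, because no molecular identifiers are named for these reads.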

Additional observations from a re-analysis of the deposited data

Results flagged for a closer look

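In 2 of 30 groups of 4 libraries, 1 library stood far from the other 3 relative to the whole range of the group. For independent values with a normal spread, chance would give this in about 1 in 20 groups, or 1.5 of 30. These groups are not independent, since they include the shares of the beta subunit genes, and low counts are not normal. The number flagged can thus not be weighed against that figure. FGF21 had 93.0 normalized counts in mitoxantrone replicate 1, while the other mitoxantrone libraries had 139 to 146. Without that library the log2 change of FGF21 against the control was 4.19. The same library had the lowest mitochondrial share of reads (3.23%, against 3.84% to 3.89% in the other 3) and the lowest GDF15 level with mitoxantrone (404). The part of the mitochondrial share in these values was not tested. STC2 had 1.10 normalized counts in pyrimethamine replicate 4, which is 1 read, and 0 in the other 3 libraries. With 1 read beside 0, that library is flagged by arithmetic alone.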

How the results depend on the processing

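Dropping the filter or setting it at a mean of 100, fitting only the groups compared and adding the replicate block cannot move a log2 change in this balanced design. Their values equal the main ones and are counted among those that follow. Of 267 alternative values of the members' log2 changes, 266 kept the direction. The exception was INHBB between the drugs, 0.076 after quantile normalization in place of -0.33, and the same setting gave -0.48 for INHBB with mitoxantrone in place of -0.79 and raised FGF21 with mitoxantrone to 4.70 from 4.04. A pseudocount of 10, which by construction draws genes with few counts toward 0, gave -0.52 for FGF21 and -1.95 for INHBE with pyrimethamine, 3.03 for FGF21 with mitoxantrone, and 3.55 for FGF21 and 5.39 for INHBE between the drugs. Leaving out each library in turn gave -2.32 to -1.39 for FGF21 with pyrimethamine and 0.21 to 0.60 for GDF15 with mitoxantrone, where mitoxantrone replicate 2 gave the lowest value. The cause was not tested. FGF21 had too few counts for a filter at a mean of 100, and STC2 was fitted only without a filter.

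All 108 counts of called genes stayed within 1.5 times the value given, and so did 830 of 858 counts within lists. The others were small counts. Scaling to the same total gave 2 in place of 1 fall of TGF-beta ligands, 0 in place of 1 rise of FGF21 receptor genes and 2 in place of 4 rises of stress factors with pyrimethamine. With mitoxantrone it gave 2 in place of 4 rises of activin inhibitors, 0 in place of 2 rises both of SMAD2 and SMAD3 targets and of GDF15 receptor and convertase genes, and 2 in place of 1 fall of ATF4 targets. Quantile normalization gave 1 in place of 2 rises of GDF15 receptor and convertase genes with mitoxantrone. Leaving out libraries was added after seeing the data for the lists.

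Over all genes fitted, no pairing by replicate number was seen, and 0 of 12 same-numbered pairs had a correlation of deviations over 0.1 (-0.013 to 0.029). A batch shared in only some genes could be missed by this measure. The labels do not say whether libraries were paired. With the replicate block, 4492 genes rose and 4565 fell with pyrimethamine, in place of 4477 and 4565, and 5685 rose and 6064 fell with mitoxantrone, in place of 5681 and 6064.

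Depth limits FGF21 outside mitoxantrone (30 and 8 reads) and STC2 everywhere (9 reads or fewer per group).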
